A study of Mus musculus with 10 samples.

Results

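*Nod2* and 6 genes that lie around it on chromosome 8, *Snx20*, *Cyld*, *Nkd1*, *Adcy7*, *Brd7* and *Sall1*, were followed through RNA-seq libraries of mouse embryonic stem cells (mESCs) that lack a scaffold of the histone deacetylase complex MiDAC. They are 7 of the 34591 genes in the expression table and 7 of its 1477 genes of chromosome 8. *Nod2* was selected because its measured RNA level was higher in both knockouts than in WT cells, and the others for their position beside it. The levels of the 7 genes relative to WT are therefore given as a description, without a test. The 7 genes are tested only in comparisons in which the WT libraries play no part. Other genes, in lists of related pathways, are tested against WT.

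The study asked which genes depend on MiDAC, which removes acetyl groups from histones. Its scaffold proteins DNTTIP1 and ELMSAN1 were each removed by CRISPR/Cas9 in male C57/BL6 (Bruce-4) mESCs, and clones grown from single sorted cells were compared with the parental WT cells in 2iL medium, which holds mESCs in a naive state. There were 10 libraries, 2 of each line, where the lines were the WT cells, clones D2A7 and D1E6 (*Dnttip1* KO) and clones E2E8 and E2G7 (*Elmsan1* KO). Each knockout is thus represented by 2 clones, whether the WT cells were themselves cloned is not given in the sources used here, and the study calls the libraries of a line biological replicates without saying whether they came from separate cultures. The p-values below measure the spread between these libraries.

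NOD2 is a cytosolic sensor of muramyl dipeptide, a fragment of bacterial cell walls, and signals through the kinase RIPK2 to the transcription factor NF-κB. It is best known from macrophages, dendritic cells and the Paneth cells of the gut. Its neighbour CYLD removes ubiquitin chains from proteins of the same pathway and so limits NF-κB activity. The other neighbours have unrelated roles. SNX20 is a sorting nexin that binds the adhesion molecule PSGL-1, NKD1 is a feedback inhibitor of WNT signalling that binds Dishevelled, ADCY7 is an adenylyl cyclase that makes cAMP, BRD7 is a bromodomain subunit of the chromatin remodeler PBAF, and SALL1 is a zinc finger transcription factor.

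The libraries held between 31098269 and 86463773 fragments, and the 2 WT libraries were the shallowest. *Dnttip1*, the targeted gene, had 8.15 and 8.43 FPKM (fragments per kilobase of exon, scaled to the fragments of the library) in WT, 4.57 and 4.56 FPKM in D2A7, 2.59 and 2.63 FPKM in D1E6, and 6.47 to 7.77 FPKM in the *Elmsan1* KO libraries. *Elmsan1*, listed as *C130039O16Rik*, had 5.53 and 5.39 FPKM in WT, 4.62 to 5.18 FPKM in *Elmsan1* KO libraries and 7.79 to 8.68 FPKM in *Dnttip1* KO libraries. The edits are small insertions or deletions, and transcripts of an edited gene can still be counted. All 10 markers of pluripotent stem cells were present in every line, with summed levels of 2896 to 3840 FPKM. Of 14 myeloid and lymphoid markers in the table at most 6 reached 0.1 FPKM in any line. The 14 together summed to 27.2 to 46.3 FPKM per library, and only 1 of them, the macrophage gene *Emr1*, was at 0 in all libraries.

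The genes span 0.772 Mb of chromosome 8 in NCBIM37 and are all annotated as protein coding. In order along the chromosome they are *Adcy7* (ENSMUSG00000031659, chr8:90796302-90853861, + strand), *Brd7* (ENSMUSG00000031660, chr8:90854938-90886093, - strand), *Nkd1* (ENSMUSG00000031661, chr8:91045243-91118786, + strand), *Snx20* (ENSMUSG00000031662, chr8:91150727-91160027, - strand), *Nod2* (ENSMUSG00000055994, chr8:91171214-91212373, + strand), *Cyld* (ENSMUSG00000036712, chr8:91220927-91275844, + strand) and *Sall1* (ENSMUSG00000031665, chr8:91551147-91568061, - strand). *Snx20* and *Nod2* are read away from each other from starts separated by 11186 bp, and the start of *Cyld* lies 8553 bp beyond the end of *Nod2*. *Adcy7* ends 1076 bp from the end of *Brd7*, which is read toward it from the other strand. The counting used a strand-specific protocol.

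Upstream sequences are shown for *Nod2*, *Cyld* and *Brd7*, which were all higher than WT in every KO library. They are the RefSeq promoter entries of build GRCm38.p6, printed 5′ to 3′ on the strand of the gene up to the base before its annotated start, and each has 1 exact match on chromosome 8 of NCBIM37. The *Nod2* stretch lies at chr8:91170996-91171213 (+ strand), that of *Cyld* at chr8:91220677-91220926 (+ strand) and that of *Brd7* at chr8:90886094-90886321 (- strand). Capitals mark the GC box GGGCGG on either strand. *Snx20* has no sequence here.
Nod2: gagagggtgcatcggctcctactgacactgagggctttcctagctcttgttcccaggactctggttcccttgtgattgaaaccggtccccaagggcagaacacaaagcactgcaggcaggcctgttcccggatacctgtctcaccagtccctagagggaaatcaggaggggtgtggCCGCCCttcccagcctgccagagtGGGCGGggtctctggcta
Cyld: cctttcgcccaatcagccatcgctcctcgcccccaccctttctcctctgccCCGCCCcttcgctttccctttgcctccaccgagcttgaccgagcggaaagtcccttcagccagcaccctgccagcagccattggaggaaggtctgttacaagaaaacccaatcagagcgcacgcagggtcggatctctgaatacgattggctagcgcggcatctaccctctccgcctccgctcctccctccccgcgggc
Brd7: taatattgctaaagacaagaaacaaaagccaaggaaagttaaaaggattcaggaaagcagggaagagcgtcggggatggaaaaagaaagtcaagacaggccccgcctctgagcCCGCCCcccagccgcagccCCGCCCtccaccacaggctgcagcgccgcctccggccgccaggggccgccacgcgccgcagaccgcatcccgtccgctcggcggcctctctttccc

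The 250 bases upstream of the RefSeq start held 3 GC boxes at *Nod2*, 2 at *Brd7* and 1 at *Cyld*, and 32.7% of 32851 mouse promoters hold at least 1. Among the other genes, the 3 entries of *Sall1* held 0, 4 and 1 and the 3 of *Adcy7* 0, 0 and 1. The *Nkd1* entry held 0. The third GC box of *Nod2* lies beyond the printed stretch. *Cyld* also held 4 matches to CCAAT, which 33.8% of promoters contain, and 1 match to the NF-κB consensus, which 7.25% contain. *Nod2* held none of either on either strand. GC content was 61.2% at *Nod2*, 62.8% at *Cyld* and 64% at *Brd7*, and the number of CpG dinucleotides was 7, 18 and 22. Such matches describe the letters of these windows and were not compared with binding of any factor.

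*Nod2* RNA was low in WT mESCs and several fold higher in every KO clone. Its level was 0.372 and 0.363 FPKM in WT, from 58 and 69 fragments. It was 1.96 and 1.99 FPKM in D2A7, 1.5 and 1.53 FPKM in D1E6, 1.30 and 1.28 FPKM in E2E8, and 1.24 and 1.33 FPKM in E2G7, from 363 to 610 fragments per library. All 8 KO libraries lay above both WT libraries, and both libraries of D2A7 lay above all others. The means were 0.367 ± 0.00642 FPKM in WT (SD, n = 2), 1.74 ± 0.265 FPKM in *Dnttip1* KO (SD, n = 4) and 1.29 ± 0.0364 FPKM in *Elmsan1* KO (SD, n = 4), or 4.75 and 3.5 times the WT mean. The exact Poisson 95% intervals of the WT libraries ran from 0.282 to 0.481 FPKM and from 0.282 to 0.459 FPKM, covering counting error only.

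*Snx20*, the divergent neighbour, showed the second highest ratio to WT. It had 1.35 and 1.12 FPKM in WT, 4.51 and 3.82 FPKM in D2A7, 2.60 and 2.66 FPKM in D1E6, 3.37 and 3.70 FPKM in E2E8, and 2.60 and 2.83 FPKM in E2G7. All KO libraries were above WT, and the order of the clones differed from that of *Nod2*, with D2A7 first, E2E8 next, and D1E6 and E2G7 overlapping at the bottom. The means of 3.40 ± 0.929 FPKM in *Dnttip1* KO (SD, n = 4) and 3.12 ± 0.501 FPKM in *Elmsan1* KO (SD, n = 4) were 2.75 and 2.53 times the WT mean of 1.23 ± 0.158 FPKM (SD, n = 2).

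*Cyld*, on the other side of *Nod2*, was higher in KO cells by a smaller and more uniform margin. WT libraries had 2.92 and 2.72 FPKM, D2A7 4.58 and 4.38 FPKM, D1E6 4.28 and 4.29 FPKM, E2E8 4.41 and 4.15 FPKM, and E2G7 4.45 and 4.40 FPKM. The KO libraries did not overlap WT but overlapped one another, and the means were 1.55 times WT in *Dnttip1* KO and 1.54 times WT in *Elmsan1* KO. *Brd7*, the PBAF subunit, followed the same course at a higher level, with 12.5 and 12 FPKM in WT and 16.5 to 18.7 FPKM in the 8 KO libraries, 1.40 and 1.43 times WT. The highest *Brd7* value, 18.7 FPKM, came from 1 library of D1E6, whose other library had 16.8 FPKM.

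*Sall1*, the most abundant of the 7 genes, was the only one below WT in all 8 KO libraries. It had 24.2 and 25.5 FPKM in WT and 21.2 to 22.3 FPKM in KO cells, and the 8 KO values lay closer together than the 2 WT values. The mean was 21.9 ± 0.418 FPKM in *Dnttip1* KO (SD, n = 4) and 21.6 ± 0.390 FPKM in *Elmsan1* KO (SD, n = 4), 0.882 and 0.870 times that of WT.

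*Nkd1* and *Adcy7* were barely detected and had no common direction. *Nkd1* had 0.187 and 0.254 FPKM in WT, 0.141 and 0.232 FPKM in D2A7, 0.242 and 0.259 FPKM in D1E6, 0.337 and 0.458 FPKM in E2E8, and 0.303 and 0.213 FPKM in E2G7. Of its KO values 4 were above both WT libraries and 1 was below both, and only E2E8 was wholly above WT. *Adcy7* had 0.107 and 0.117 FPKM in WT, 0.0610 and 0.0683 FPKM in D2A7, 0.128 and 0.180 FPKM in D1E6, 0.146 and 0.165 FPKM in E2E8, and 0.165 and 0.124 FPKM in E2G7. D2A7 lay below WT and the other 3 clones above it. The *Adcy7* values in WT rest on 21 and 28 fragments, with 95% Poisson intervals of 0.0660 to 0.163 FPKM and 0.0775 to 0.169 FPKM.

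By level in WT the order was *Sall1*, *Brd7*, *Cyld*, *Snx20*, *Nod2*, *Nkd1* and *Adcy7*, and no neighbouring pair in this order overlapped between the 2 WT libraries. In bulk RNA, a change in the share of cells that transcribe a gene and a change in the RNA per cell cannot be told apart.

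**Figure D1:**
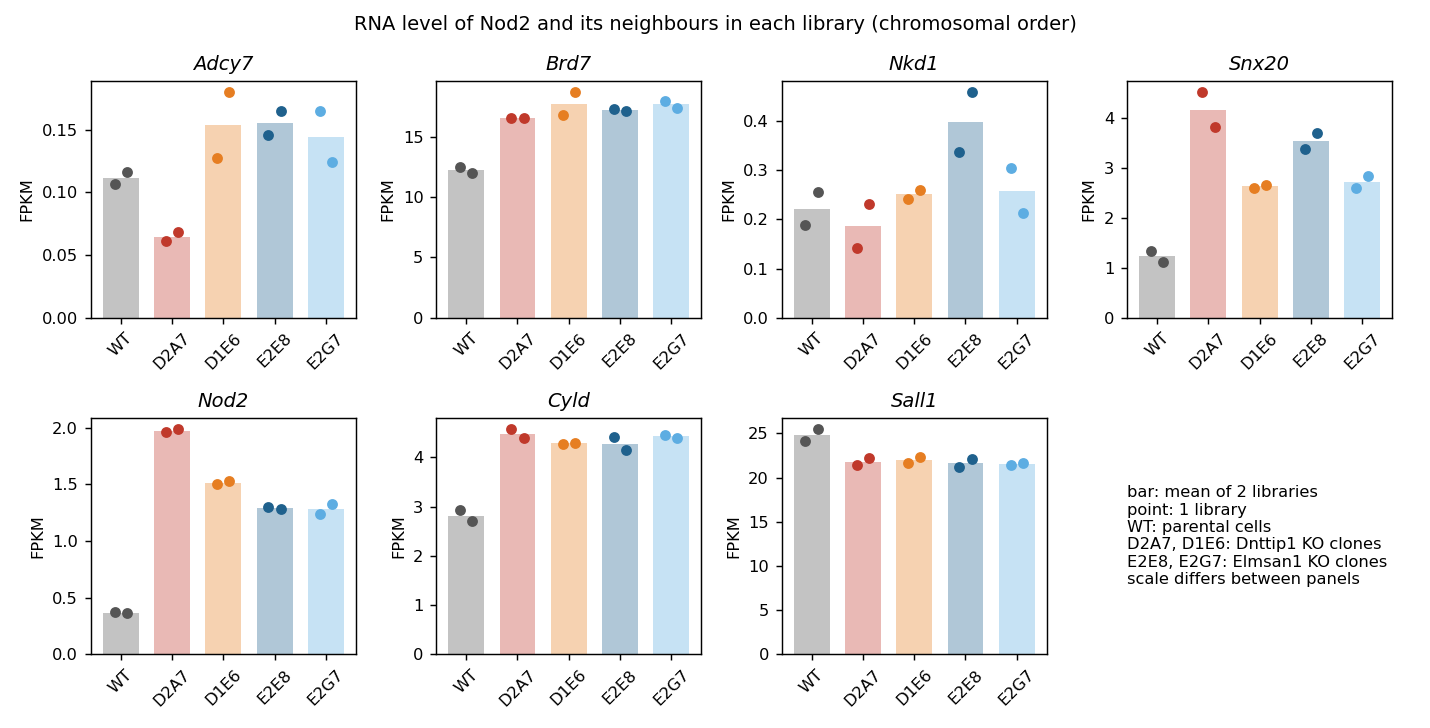
RNA level in FPKM (y axis, from 0, scale differing between panels) of the 7 genes in the 5 lines (x axis), with a point for each library and a bar for the mean of 2 libraries. *Nod2*, *Snx20*, *Cyld* and *Brd7* lie above WT in all 8 KO libraries and *Sall1* below it, while *Nkd1* and *Adcy7* are mixed.

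The rise of *Nod2* was then set beside the general shift of the chromosome. Differences are given as log2(FPKM + 0.1) of the KO libraries minus that of WT, after scaling of the libraries, and they understate the change of low genes. The reference was the 667 genes of chromosome 8 that averaged 1 FPKM or more. Their median difference was 0.37 in *Dnttip1* KO and 0.36 in *Elmsan1* KO, a fold of 1.29 in both, with 91.2% and 90.9% of the genes higher. It was present in every KO library, at 0.349 to 0.379, and in every 10 Mb stretch with at least 10 genes, at 0.169 to 0.428 in *Dnttip1* KO and 0.295 to 0.396 in *Elmsan1* KO. The 10912 genes of the other autosomes had medians of -0.004 and -0.016. Chromosome 8 had the highest median of all autosomes in both knockouts, in D2A7 and in E2G7. Chromosome 6 was higher in D1E6 (0.42) and E2E8 (0.39) and close behind in E2G7 (0.29) and in *Elmsan1* KO as a whole (0.34), while in D2A7 its median was -0.0823. DNA copy number was not measured in these files, and its part in these shifts was not tested.

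*Nod2* exceeded the chromosome median in every clone. Its log2 difference from WT was 2.13 in D2A7, 1.76 in D1E6, 1.55 in E2E8 and 1.55 in E2G7, and 1.76, 1.40, 1.20 and 1.19 of this remained after the median of chromosome 8 in the same clone was subtracted. Relative to the chromosome, *Nod2* was thus higher by 3.39-fold, 2.63-fold, 2.30-fold and 2.29-fold. *Nod2* was chosen for this difference and averages over 1 FPKM only because of its KO libraries, so its rank among the 667 genes is not given. *Snx20* was also above the chromosome median in each clone, with log2 differences from WT of 1.66, 1.01, 1.42 and 1.06 in D2A7, D1E6, E2E8 and E2G7 and ranks between 9 and 22. The difference of *Nod2* exceeded that of *Snx20* by 0.47, 0.75, 0.13 and 0.49 in the same order. The pooled SD of libraries within lines was 0.0391 for *Nod2* and 0.134 for *Snx20*, and the excess in E2E8 was smaller than the latter. With a pseudocount of 1 the order was reversed in *Elmsan1* KO, at 0.734 for *Nod2* and 0.863 for *Snx20*.

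*Cyld* and *Brd7* lay above the chromosome median by less than *Nod2* and *Snx20*. The log2 differences from WT were 0.63, 0.56, 0.56 and 0.62 for *Cyld* and 0.41, 0.50, 0.46 and 0.51 for *Brd7* in D2A7, D1E6, E2E8 and E2G7. Relative to the chromosome the fold was 1.14 to 1.20 for *Cyld* and 1.03 to 1.11 for *Brd7*. *Cyld* was above the upper quartile of the chromosome, 0.52 in both knockouts, and ranked 127th and 126th of the 667 genes, while *Brd7* was below it and ranked 228th and 192nd. *Sall1* went the other way, with -0.21, -0.20, -0.22 and -0.22, and ranked between 632 and 649 of the 667 genes in the 2 knockouts and 4 clones. The difference from WT of *Nkd1* was -0.19, 0.11, 0.61 and 0.14, and that of *Adcy7* -0.37, 0.24, 0.25 and 0.19. The median over the 6 neighbours was 0.21 in *Dnttip1* KO and 0.43 in *Elmsan1* KO, with 3 and 5 of them higher than WT. With the median of chromosome 8 set to that of WT in each library, the *Dnttip1* KO median turned to -0.162.

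**Figure D2:**
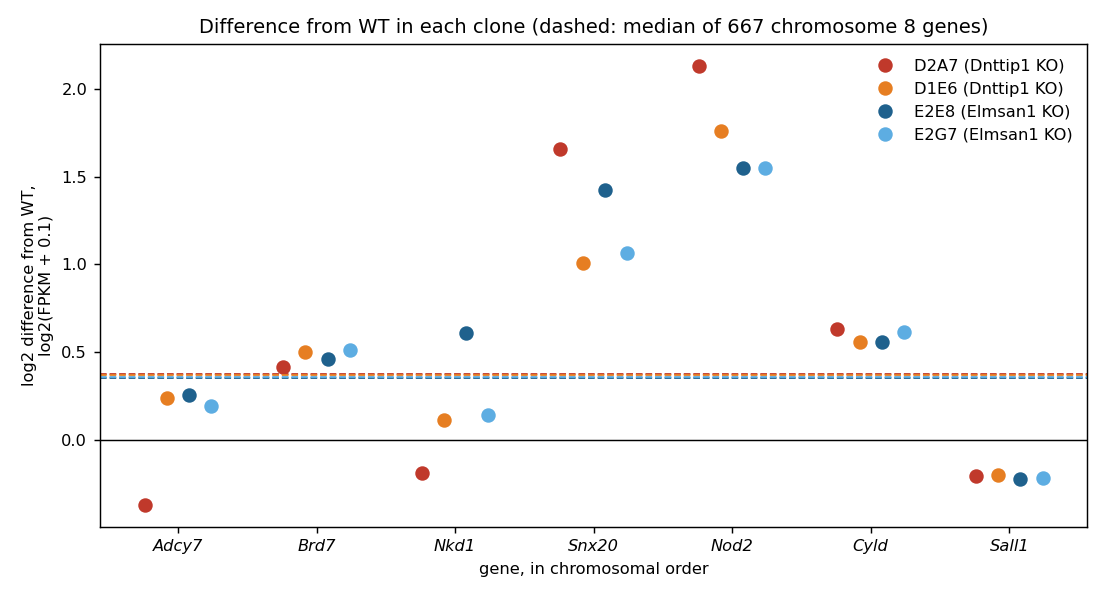
Difference from WT on the log2(FPKM + 0.1) scale (y axis) of each gene (x axis, chromosomal order), with a point for each clone and dashed lines at the chromosome 8 median of each clone. *Nod2* (1.55 to 2.13) and *Snx20* (1.01 to 1.66) lie above the lines in all 4 clones, *Cyld* and *Brd7* just above them, and *Sall1* below 0.

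At least a 1.5-fold higher level without overlap with WT was found for 3 of the 7 genes in *Dnttip1* KO (*Snx20*, *Nod2* and *Cyld*), beside 7% of all genes tested, and for the same 3 in *Elmsan1* KO, beside 6.11%. It was found for these 3 in D2A7 (14.2% of all genes), for *Snx20* and *Nod2* in D1E6 (7.05%), for *Nkd1*, *Snx20* and *Nod2* in E2E8 (13.1%), and for *Snx20*, *Nod2* and *Cyld* in E2G7 (5.2%). *Nod2* was picked on these values and its neighbours with them known, so nothing is read from the counts. Of the chromosome 8 genes tested, 19.1% in *Dnttip1* KO and 18.6% in *Elmsan1* KO met the same criterion. *Cyld* stood just inside it, at 1.51-fold and 1.5-fold, and *Brd7* just outside, at 1.37-fold and 1.40-fold.

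Within 2 Mb of the *Nod2* start lie 18 other genes, of which 12 averaged 0.1 FPKM or more. Their median difference from WT was 0.32 in *Dnttip1* KO and 0.34 in *Elmsan1* KO, 10 of 12 were higher in each, and 3 and 2 were at least 1.5-fold higher. The range was wide, from -0.09 to 1.20 in *Dnttip1* KO and from -0.40 to 1.67 in *Elmsan1* KO. The highest values belonged to the lincRNA *Gm2694*, which had 0.215 FPKM in WT, was above WT in all 8 KO libraries and exceeded the difference of *Nod2* in *Elmsan1* KO. *C230036H16Rik*, a lincRNA that overlaps it on the same strand, was higher by 0.97 and 0.95. How reads shared between these lincRNAs were counted is not given in the sources used here. The lowest value in *Elmsan1* KO was that of *Tox3*, which had -0.004 in *Dnttip1* KO. These 3 genes were named after their values were seen. Within 500 kb, the poly(A) polymerase gene *Papd5* was higher by 0.30 and 0.34 and above WT in all 8 KO libraries, and *9430002A10Rik* by 0.72 and 0.36 with 7 of 8 above WT.

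**Figure D3:**
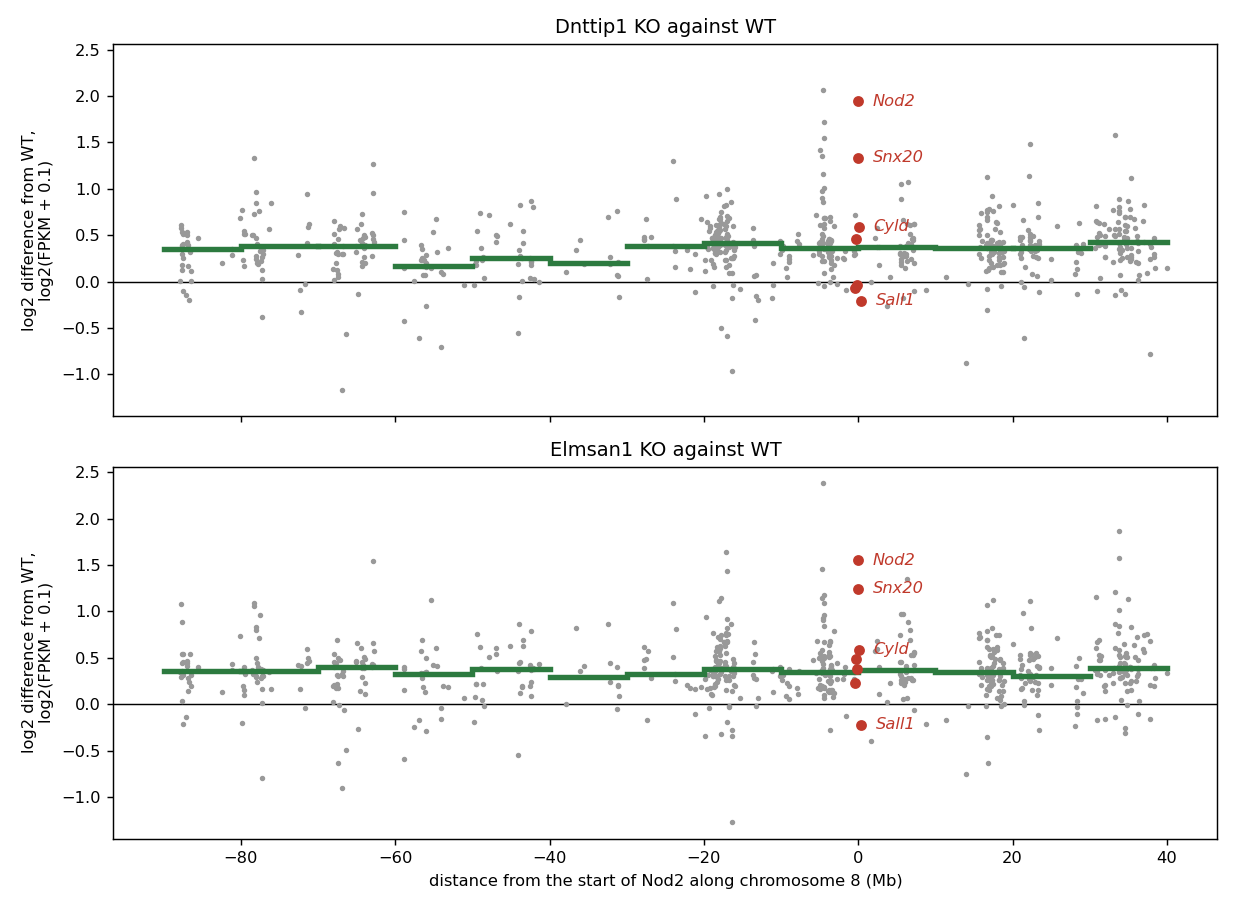
Difference from WT on the log2(FPKM + 0.1) scale (y axis) of chromosome 8 genes averaging 1 FPKM or more (grey points) by distance from the *Nod2* start in Mb (x axis), for *Dnttip1* KO (top) and *Elmsan1* KO (bottom). Green lines mark medians of 10 Mb stretches, all above 0, and red points the 7 genes, with *Nod2* at 1.95 and 1.55.

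Comparisons without the WT libraries were tested with limma, with p-values adjusted over all genes tested. Genes were called where the fold was at least 1.5 and the unadjusted p under 0.01, the rule that the study used. Between *Dnttip1* KO and *Elmsan1* KO, 0 of the 7 genes were called, beside 1.52% of all genes. *Nod2* was higher in *Dnttip1* KO by 0.40 on the log2 scale (SE 0.128, 95% CI 0.11 to 0.69), with a limma adjusted p of 0.296, and all 4 *Dnttip1* KO libraries were above all 4 *Elmsan1* KO libraries. *Nod2* was also the 1 gene of the 7 with an unadjusted p under 0.05 (limma, 0.0131), and voom on the recovered fragments called 0. The differences of *Cyld* (0.01, 95% CI -0.15 to 0.16), *Brd7* (-0.03, 95% CI -0.15 to 0.09) and *Sall1* (0.02, 95% CI -0.08 to 0.11) had narrow intervals. Those of *Snx20* (0.09, 95% CI -0.36 to 0.54), *Nkd1* (-0.41, 95% CI -0.92 to 0.09) and *Adcy7* (-0.29, 95% CI -0.78 to 0.20) were wide. All these intervals treat the 4 libraries of a knockout as independent, although they come from 2 clones, so a narrow interval does not show equal levels. With the correlation within clones estimated, limma's adjusted p was 1.00 for each of the 7.

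Between the *Dnttip1* KO clones 1 of the 7 genes was called, beside 12.9% of all genes. *Snx20* was higher in D2A7 than in D1E6 by 0.65 on the log2 scale (SE 0.0948, 95% CI 0.40 to 0.90, limma adjusted p = 0.00714). This call was lost without the D2A7 library of 4.51 FPKM (0.53, limma adjusted p = 0.0161) because the difference then fell below 1.5-fold. *Nod2* was also higher in D2A7, by 0.37 (SE 0.0739, 95% CI 0.18 to 0.56), with a limma adjusted p of 0.0174, but this was under 1.5-fold, and the adjusted p was 0.0514 after quantile normalization and 0.0562 to 0.0786 with any of the 4 libraries left out. *Adcy7* was lower in D2A7 by 0.61 (95% CI -1.19 to -0.03, limma adjusted p = 0.0882), and it was called only by voom on the recovered fragments (-1.24, adjusted p = 0.00288). For *Cyld* (0.07), *Brd7* (-0.09), *Sall1* (-0.002) and *Nkd1* (-0.30) the limma adjusted p was at least 0.261.

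D2A7 also stood apart in other markers. A list of 10 fibroblast genes summed to 0.928 and 0.947 FPKM in D2A7 and to 0.201 to 0.378 FPKM in all other libraries, and in D2A7 none of the 10 was at 0 in both libraries. The 14 myeloid and lymphoid markers summed to 43.3 and 46.3 FPKM in D2A7, 39.7 and 41.4 FPKM in WT and 27.2 to 36.0 FPKM in the other clones. The 10 markers of pluripotent stem cells were also highest in D2A7, at 3589 and 3840 FPKM beside 2896 to 3250.5 FPKM in the other lines. Whether these differences had a part in the *Nod2* and *Snx20* levels of D2A7 was not tested.

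Between the *Elmsan1* KO clones 0 of the 7 genes were called by limma, beside 13.7% of all genes, and 1 had an unadjusted p under 0.05. *Nod2* differed by -0.002 on the log2 scale (E2E8 minus E2G7, SE 0.0804, 95% CI -0.21 to 0.21, limma adjusted p = 0.987). After quantile normalization it was -0.239. *Snx20* was higher in E2E8 by 0.36 (SE 0.0755, 95% CI 0.16 to 0.55, limma adjusted p = 0.0160), which is under 1.5-fold, and the adjusted p ranged from 0.00696 to 0.0592 over the other ways of processing all libraries. *Nkd1* was higher in E2E8 by 0.47 (95% CI -0.07 to 1.00, limma adjusted p = 0.120) and was called only by voom (0.613, adjusted p = 0.0194). *Adcy7*, *Brd7*, *Cyld* and *Sall1* differed by at most 0.06 in size. The chromosome 8 median differed by 0.007 between the knockouts, by 0.0098 between D2A7 and D1E6 and by 0.018 between E2E8 and E2G7.

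**Figure D4:**
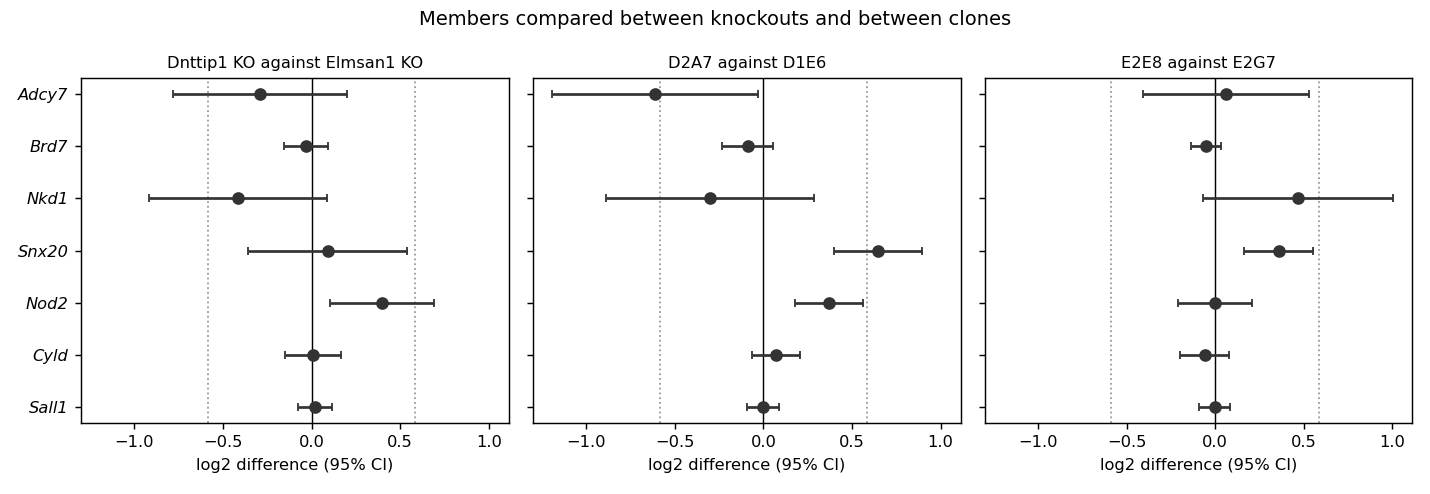
Log2 difference (x axis) with its 95% confidence interval of each gene (y axis) between the knockouts, between D2A7 and D1E6, and between E2E8 and E2G7, from limma on log2(FPKM + 0.1). Dotted lines mark a 1.5-fold difference, which only *Snx20* (0.65) and *Adcy7* (-0.61) exceed, both between D2A7 and D1E6. Between the knockouts, the intervals treat libraries of the same clone as independent.

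The genes whose levels followed *Nod2* most closely were ranked by Pearson's r over log2 values. Over all 10 libraries, which share lines and include the WT libraries used to choose *Nod2*, the 5 closest of 12216 genes were *Haus8* (0.991), *Mdk* (0.991), *Lamb2* (0.988), *Erlin2* (0.988) and *Cope* (0.987). *Haus8*, *Erlin2* and *Cope* lie on chromosome 8, as do 46 of the 100 closest and 5.47% of all genes ranked. Of the neighbours, *Cyld* ranked 77th (0.954), *Snx20* 136th (0.934) and *Brd7* 327th (0.880), while *Sall1* was near the other end (-0.912). Over the 8 KO libraries alone the closest were *Krt18* (0.993), *Abcb1a* (0.993), *Mme* (0.993), *Fam189a2* (0.992) and *Mapt* (0.989), and 6 of the 100 closest were on chromosome 8, near its share of all genes ranked. The r of *Snx20* was then 0.593 (ranked 2980th), that of *Cyld* 0.395 (4179th) and that of *Sall1* 0.324. It was negative for the other neighbours, at -0.551 for *Brd7*, -0.717 for *Nkd1* and -0.875 for *Adcy7*. The KO libraries come from 4 clones, and *Krt18* averaged 8.33 FPKM in *Dnttip1* KO and 3.45 FPKM in *Elmsan1* KO.

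Other genes of the pathways in which the 7 genes act were examined by lists, each tested against WT. Over all genes, 3.26% were called higher and 3.25% lower in *Dnttip1* KO, and 2.74% higher and 3.68% lower in *Elmsan1* KO. Of 34 genes of NOD2 signalling tested, limma called 1 lower in *Dnttip1* KO and 0 in *Elmsan1* KO. The unadjusted p was under 0.05 for 7 and 8 of them, and voom also called 1 and 0. The share of all genes with an unadjusted p under 0.05 is not given. Nothing is therefore read from such counts in this list or those below. The list had medians of 0.01 and -0.04 beside 0.02 and 0.003 over all genes. The gene called was *Ripk2*, the kinase that NOD2 activates. *Ripk2* had 4.76 and 4.93 FPKM in WT and 2.90 to 4.30 FPKM in KO libraries, and fell by 0.63 on the log2 scale in *Dnttip1* KO (SE 0.0935, limma adjusted p = 0.0161, 0.213 with an estimated correlation within clones). In *Elmsan1* KO its difference was -0.41 (SE 0.143, limma adjusted p = 0.126).

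Of 20 targets of NF-κB and interferon, only 9 passed the filter on low values, and 1 was called lower in each knockout, *Rsad2* in *Dnttip1* KO and *Cxcl1* in *Elmsan1* KO. Both are at low levels, at 0.352 and 0.120 FPKM in WT. Neither was called with the correlation within clones. *Bcl3*, a target and cofactor of NF-κB, had log2 differences of 0.41 and 0.12 with limma adjusted p of 0.0975 and 0.607. The list medians were 0.06 and 0.05.

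For the pathway of *Nkd1*, 4 of 16 WNT feedback and target genes were called lower in each knockout and 0 were called higher by limma or voom, with medians of -0.15 and -0.22. *Notum*, a secreted WNT inhibitor, fell from 88.6 and 90.3 FPKM in WT to between 29.1 and 38.3 FPKM in KO libraries, by 1.54 on the log2 scale in *Dnttip1* KO (SE 0.0815, limma adjusted p = 0.00242) and by 1.29 in *Elmsan1* KO (SE 0.0520, limma adjusted p = 0.00102). *T* and *Ccnd1* were also lower in both, by 1.16 and 0.76 in *Dnttip1* KO and by 0.95 and 0.67 in *Elmsan1* KO. *T* was no longer called with an estimated correlation within clones (limma adjusted p = 0.308 and 0.464), which left *Notum* (0.0123 and 0.0141) and *Ccnd1* (0.122 and 0.0778) as the 2 of 16 called in each knockout. *Lef1* was called in *Dnttip1* KO and *Sp5* in *Elmsan1* KO alone, and the difference between knockouts was not tested.

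In the other lists few genes were called. Of 16 subunits of PBAF and related SWI/SNF remodelers, 0 were called in either knockout by limma or voom, and 4 and 5 had an unadjusted p under 0.05. *Phf10* was the one with the largest mean difference, with -0.52 and -0.31 (limma adjusted p = 0.00937 and 0.111), less than 1.5-fold. Of 10 SALL family and core pluripotency genes, 0 were called in *Dnttip1* KO by limma or voom, with an unadjusted p under 0.05 for 6, and *Sall3* was called lower in *Elmsan1* KO. *Zfp42*, which lies on chromosome 8, was higher by 0.50 and 0.36 (limma adjusted p = 0.0386 and 0.0263) without reaching the rule. With the correlation within clones its limma adjusted p was 0.158 and 0.184. The chromosome 8 medians were 0.37 and 0.36. *Sall3*, *Nanog*, *Sox2* and *Klf4*, also with a limma unadjusted p under 0.05 in both knockouts, were lower. The medians of this list were -0.10 and -0.22. Of 4 adenylyl cyclases tested of 9, *Adcy6* was higher in *Elmsan1* KO by 0.65 (limma adjusted p = 0.0317, 0.343 with an estimated correlation within clones). In *Dnttip1* KO limma called 0 of the 4, with an unadjusted p under 0.05 for 2, and voom called 1. Of 19 sorting nexins and partners, *Snx21* and *Selplg*, which encodes PSGL-1, were higher in *Dnttip1* KO, and neither was called with the correlation within clones. In *Elmsan1* KO limma and voom called 0, and 3 had an unadjusted p under 0.05.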

How the data were processed

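RNA from 10 libraries of mESCs was analysed from a table of FPKM values. Per the labels and the study's methods, the authors made stranded paired-end libraries of total RNA, mapped the reads to NCBIM37, obtained gene counts with HT-seq and deposited FPKM computed from these counts. For their own tests the authors used TMM in edgeR 3.16.5 with voom and limma under R 3.3.1. The methods name a later GENCODE release than vM1, the annotation on NCBIM37 used here for positions and exon lengths, which matched 33606 of 34591 gene identifiers.

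FPKM multiplied by exon length gave whole fragments (within 0.02 of a fragment, for values under 100 fragments) for 98.1% to 98.4% of values, from which depth, from 31098269 to 86463773 fragments per library, and counting intervals were taken. Intervals cover counting error only. Each library was divided by its median ratio to the geometric mean (factors 0.965 to 1.01). Genes with at least 0.1 FPKM in 2 libraries of a comparison were fitted as log2(FPKM + 0.1) by limma 3.58.1 (R 4.3.3) with a variance trend, and two-sided p-values were adjusted by Benjamini-Hochberg over the whole table tested. A call needed a 1.5-fold or greater difference with an unadjusted p under 0.01. The fits were tested on simulated counts drawn independently for each library, without differences between clones. That simulation therefore does not cover the correlation within clones, which was estimated at 0.704 to 0.856 in these data. Figures were drawn with matplotlib 3.10.9.

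The members and the lists were chosen with earlier results of these data known. Genes named from a list are those called in both knockouts in the same direction or, where there were none, the gene averaging 1 FPKM or more with the greatest mean difference, and genes like *Nod2* are the 5 with the highest Pearson's r. Other list genes are named because they made up a count. Samples were grouped by line, and clones are named by their codes because the labels and the series text number the *Dnttip1* KO clones differently. The 2 libraries of each line differed beyond sampling noise. The replicate numbers did not pair libraries across lines, since deviations from the line means correlated between -0.139 and 0.192, above 0.1 for 1 of 10 pairs of lines. The alternatives were other pseudocounts, filters and scalings, no variance trend, voom, chromosome 8 centring, a replicate block, the correlation within clones, an adjusted p threshold, other windows and each library left out.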

Additional observations from a re-analysis of the deposited data

Results flagged for a closer look

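A sample far from the others was found for *Brd7* among the 4 *Dnttip1* KO libraries. The D1E6 library of 18.7 FPKM was separated from the next value by 0.887 of the whole range of the group, above Dixon's 95% critical value for 4 samples, and chance alone marks about 1 in 20 groups. All 4 values exceeded both WT libraries.

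*Snx20* differed between clones of the same knockout, by 0.648 on the log2 scale between D2A7 and D1E6 (limma adjusted p = 0.00714, 95% CI 0.40 to 0.90), both libraries of D2A7 lying above both of D1E6.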

How the results depend on the processing

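*Nod2* stayed higher than WT in both knockouts under every alternative run, and its size moved with the pseudocount. Its log2 difference of 1.95 in *Dnttip1* KO and 1.55 in *Elmsan1* KO became 0.99 and 0.734 with a pseudocount of 1, 2.18 and 1.76 with 0.01, 2.2 and 1.78 with voom, and 1.58 and 1.2 with chromosome 8 centred. Minus the chromosome 8 median it was 0.653 and 0.403 with a pseudocount of 1, 1.8 and 1.39 with 0.01, and 1.83 and 1.41 with voom. The log2 difference of *Snx20* was 0.939 and 0.863 with a pseudocount of 1, below that of *Nod2* in *Dnttip1* KO and above it in *Elmsan1* KO. The chromosome 8 median was 0.337 and 0.33 with a pseudocount of 1, 0.355 and 0.353 after quantile normalization, and 0.398 and 0.386 with FPKM as deposited. The median of the 6 neighbours turned to -0.162 in *Dnttip1* KO with chromosome 8 centred, which subtracts that shift, and was 0.0768 in *Elmsan1* KO, where a pseudocount of 1 gave 0.286. It is not given for genes averaging 1 FPKM or more, which leaves out *Nkd1* and *Adcy7*.

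Genes called against WT numbered 1135 in *Dnttip1* KO and 1106 in *Elmsan1* KO, and 540 and 525 with a pseudocount of 1, 538 and 486 with the correlation within clones, and 664 and 603 among genes averaging 1 FPKM or more. Between the knockouts 268 were called, 171 with the replicate block, 79 with a pseudocount of 1, 4 with the adjusted p under 0.05, 54 with the correlation within clones and 112 among genes averaging 1 FPKM or more. Between D2A7 and D1E6 2198 were called, 1036 with a pseudocount of 1 and 1384 with that filter, and between E2E8 and E2G7 2299, 846 and 1254. The replicate block changed no call among the 7 genes.

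Leaving out each library in turn gave a *Nod2* difference of 1.88 to 2.01 in *Dnttip1* KO and 1.51 to 1.59 in *Elmsan1* KO, and a chromosome 8 median of 0.36 to 0.38 and 0.354 to 0.369. Calls ranged from 599 to 1077 and from 622 to 1146 against WT, both lowest without WT replicate 1, and from 105 (without E2E8 replicate 1) to 507 (without D1E6 replicate 1) between the knockouts. The *Snx20* call between D2A7 and D1E6 was lost with a pseudocount of 1 (0.512), after quantile normalization (0.55) and without D2A7 replicate 1 (0.529). The WT levels of *Nod2*, *Snx20*, *Nkd1* and *Adcy7* rest on under 100 fragments, and the causes of these changes were not tested.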
